A study of Homo sapiens with 12 samples.

Results

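Ephrins and their Eph receptors were followed across epigenetic priming and Vitamin D analog treatment in MiaPaca2, an established human pancreatic ductal adenocarcinoma (PDAC) cell line. The 10 genes described here are the ephrins EFNA1, EFNA3, EFNA4, EFNA5, EFNB1 and EFNB2 and the receptors EPHA2, EPHA4, EPHB2 and EPHB4, out of 63677 genes listed in the count files and 22 human ephrins and Eph receptors. They were chosen by symbol, from a list made with earlier results of these libraries known. The rule names no measured value, but EFNA1 had been named for its lower level after priming without CPT, and the comparisons that use the Con or GTA+5-Aza libraries in which it had been named are therefore given for EFNA1 as values without a test, and EFNA1 is left out of the counts there. For the other genes p-values come from the fit over all genes and describe these libraries, and no count of the 10 is read as support for the choice. All 10 passed edgeR's filter on low counts, as did 17123 genes in all.

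Ephrins are ligands that stay attached to the cell surface, and Eph receptors are the receptor tyrosine kinases that bind them on a neighbouring cell. A-class ephrins are held by a lipid anchor, whereas B-class ephrins cross the membrane, so that the ligand can also signal into the cell that carries it. The pathway is known for cell repulsion, tissue boundaries and cell movement, and EPHA2 is often abundant in epithelial tumours.

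RNA was sequenced from wild-type MiaPaca2 cells treated for 24 h, with 3 libraries in each of 4 groups. Unprimed cells received DMSO (Con) or calcipotriol (CPT), an analog of Vitamin D, at 1 µM. Primed cells received glyceryl triacetate (GTA), a source of acetate for histone acetylation, at 2 mM together with 5-Aza-2′-deoxycytidine (5-Aza), an inhibitor of DNA methylation, at 1 µM, either without CPT (GTA+5-Aza) or with CPT at 1 µM (CPT+GTA+5-Aza). GTA and 5-Aza were always given together, so their separate effects cannot be told apart, and all libraries come from 1 cell line. Total counts ran from 16162490 to 21224665 per library. The study's methods call the samples of an experiment independent, but neither they nor the labels name separate cultures for these libraries, so p-values measure the spread between these libraries, which may be technical.

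The epithelial keratin genes KRT8 (1409 to 1740 CPM, that is counts scaled to a common library size) and KRT18 (644 to 854 CPM) and the mesenchymal gene VIM (5308 to 6593 CPM) were abundant in all 12 libraries. EPCAM, with at most 1 count, and CDH1, with at most 4, were near 0 although both mark epithelial cells. The acinar and islet markers PRSS1, CPA1, INS and GCG had 0 counts, and the 7 leukocyte and endothelial markers had at most 11. The summed level of the 4 mesenchymal markers was 6223 to 6341 CPM in Con and 6124 to 6663 CPM in CPT. It was 5365 to 5723 CPM in GTA+5-Aza and 5494 to 5786 CPM in CPT+GTA+5-Aza, so primed and unprimed libraries did not overlap. VIM made up nearly all of this sum. ZEB1 had 46.2 to 65.9 CPM, FN1 had 2.31 to 3.71 CPM and CDH2 had at most 5 counts. Of the 3 mesenchymal markers tested, edgeR called VIM alone, beside 17.5% of all genes without CPT and 17.0% with CPT. Its log2 fold changes after priming were -0.19 without CPT and -0.18 with CPT. Those of FN1 were -0.01 and 0.02 and those of ZEB1 were -0.22 and -0.16, and neither gene was called. The 6 epithelial markers summed to 2231 to 2391 CPM in Con, 2082 to 2536 in CPT, 2443 to 2625 in GTA+5-Aza and 2481 to 2566 in CPT+GTA+5-Aza. Of the fibroblast markers, COL1A2 was abundant throughout (689 to 943 CPM), whereas COL1A1 had 1 to 44 counts, PDGFRB at most 10 and DCN at most 2. COL1A1 was higher after priming, with log2 fold changes of 3.62 without CPT and 3.46 with CPT (edgeR, Benjamini-Hochberg adjusted p = 0.000425 and 0.000934). COL1A2 was also called, with smaller log2 fold changes of 0.15 and 0.19 (edgeR, Benjamini-Hochberg adjusted p = 0.0410 and 0.0102). The keratin gene KRT7, at 4 to 49 counts, was higher by 2.34 on the log2 scale after priming without CPT (edgeR, Benjamini-Hochberg adjusted p = 0.00597) and had 1.41 with CPT (0.0776). KRT19 had 0.27 without CPT and 0.28 with CPT (edgeR, Benjamini-Hochberg adjusted p = 0.0467 and 0.0472). KRT18 had 0.16 and 0.18 (edgeR, Benjamini-Hochberg adjusted p = 0.0800 and 0.0436), and KRT8 was called in neither comparison. The part of these shifts in the values below was not tested. In bulk RNA, fewer cells that express a gene and less RNA per cell cannot be told apart. CPT replicates 2 and 3 differed most of the 12 pairs of libraries within a group, with a chi-square over genes of 16.6 per degree of freedom against 3.88 to 9.04 in the other pairs, and the called values of priming with CPT, and those that stand out with CPT alone, are also given without 1 of them.

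The promoters of the genes with the clearest differences are shown first because priming included an inhibitor of DNA methylation, which acts at cytosines followed by guanine. The 250 bases before the annotated start are printed 5′ to 3′ from RefSeq on GRCh38.p14, with each CG dinucleotide in capitals.
EFNB1, chrX:68828771-68829020, plus strand: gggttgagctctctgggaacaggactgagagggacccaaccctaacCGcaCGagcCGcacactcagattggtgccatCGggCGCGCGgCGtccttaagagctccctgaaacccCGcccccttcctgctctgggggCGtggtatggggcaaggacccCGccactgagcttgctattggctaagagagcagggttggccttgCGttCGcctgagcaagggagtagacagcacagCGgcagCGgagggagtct
EPHA2, chr1:16156070-16156319, minus strand: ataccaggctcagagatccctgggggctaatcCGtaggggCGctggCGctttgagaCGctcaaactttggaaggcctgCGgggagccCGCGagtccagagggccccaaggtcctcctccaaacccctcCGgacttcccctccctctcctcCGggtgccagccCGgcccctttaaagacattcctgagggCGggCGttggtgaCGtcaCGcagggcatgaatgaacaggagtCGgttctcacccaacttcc
EPHA4, first entry, chr2:221574203-221574452, minus strand: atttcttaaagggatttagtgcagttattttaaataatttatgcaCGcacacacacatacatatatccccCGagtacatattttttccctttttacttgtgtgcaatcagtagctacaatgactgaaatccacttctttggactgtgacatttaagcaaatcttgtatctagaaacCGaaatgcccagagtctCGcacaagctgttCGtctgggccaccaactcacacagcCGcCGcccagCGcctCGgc
EPHA4, second entry, chr2:221572305-221572554, minus strand: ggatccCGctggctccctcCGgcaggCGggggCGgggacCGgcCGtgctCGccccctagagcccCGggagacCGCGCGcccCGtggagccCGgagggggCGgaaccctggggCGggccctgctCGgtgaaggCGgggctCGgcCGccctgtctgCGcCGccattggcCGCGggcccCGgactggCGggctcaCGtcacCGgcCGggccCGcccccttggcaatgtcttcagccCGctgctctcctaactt
EFNA1, chr1:155127626-155127875, plus strand: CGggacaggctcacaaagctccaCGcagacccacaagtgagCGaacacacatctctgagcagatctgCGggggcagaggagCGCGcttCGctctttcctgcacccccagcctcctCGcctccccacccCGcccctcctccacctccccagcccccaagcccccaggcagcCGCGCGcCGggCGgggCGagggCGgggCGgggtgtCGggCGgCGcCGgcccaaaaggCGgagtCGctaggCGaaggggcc
EFNB1 and EPHA2 each had 15 CG dinucleotides in this window and EFNA1 had 24, while the median over 35116 promoter windows of the same length was 11. The entries of EPHA4 differed, with 9 CG dinucleotides in the first and 30 in the second. Among the other listed genes the number was 23 in EFNA3, 17 in EFNA4, 41 in EFNA5, 40 in EFNB2, 42 and 41 in the entries of EPHB2 and 29 in EPHB4. The GC box GGGCGG, searched on both strands, was in all of the listed genes' windows and in 42.6% of all promoter windows. Genes that were higher, lower or not different after priming thus all had CG dinucleotides here. Methylation of these sites was not measured in these libraries, and a match of letters is a description only.

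EFNA4 (chromosome 1 from 155063737 to 155069553), EFNA3 (155078837 to 155087538) and EFNA1 (155127876 to 155134899) are neighbours on the plus strand of GRCh38, with 9283 bases between the first pair and 40337 bases between EFNA3 and EFNA1. EPHA2 lies on chromosome 1 from 16124337 to 16156069, EPHB2 on chromosome 1 from 22710839 to 22921500, EFNB1 on chromosome X from 68829021 to 68842160, EPHA4 on chromosome 2 from 221418027 to 221574202, EFNA5 on chromosome 5 from 107376894 to 107670937, EPHB4 on chromosome 7 from 100802565 to 100827523 and EFNB2 on chromosome 13 from 106489745 to 106535662. A readthrough gene, EFNA4-EFNA3, shares 43.9% of the exon bases of EFNA3 and 15.0% of those of EFNA4. It had 0 counts in every library. How reads on shared bases were assigned is not given, so this 0 does not show that they counted for EFNA3 and EFNA4. The counts of EFNA3 and EFNA4 are therefore less certain. The strand setting of the counting is not given in the sources used here. An antisense gene overlaps 36.4% of the exon bases of EFNB2 and another 4.7% of those of EPHA4, so these counts are less certain. The first of these antisense genes was not among the genes counted, so its level is unknown. The second of them had 9 to 69 counts against 1674 to 3682 for EPHA4.

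In control cells the receptors were far more abundant than the ligands, apart from EPHB2. Per kilobase of exon, the mean level in Con (± SD, n = 3) was 54.8 ± 3.74 CPM for EPHA2, 25.7 ± 1.20 for EPHB4 and 23.4 ± 1.43 for EPHA4. The ligands followed with 5.65 ± 1.21 CPM per kilobase for EFNA4, 3.62 ± 0.265 for EFNB1 and 2.59 ± 0.354 for EFNA1. EPHB2 at 2.31 ± 0.0302 and EFNA5 at 2.12 ± 0.196 were close to EFNA1, and EFNB2 at 1.21 ± 0.227 and EFNA3 at 0.805 ± 0.298 were lowest. Outside the list, the receptor EPHA1 had 5.00 CPM per kilobase in Con, and EPHA7, EPHA8, EPHA10 and EPHB3 had 0.623 or less. The Con libraries of EPHB4 and EPHA4 overlapped, as did those of EFNA1 and EPHB2, of EPHB2 and EFNA5, and of EFNB2 and EFNA3, so the order within these pairs is not resolved. Dividing by the longest transcript instead of all exon bases gave the same order of the 10 listed genes. The place of unlisted genes depended on the length used. By longest transcript EPHA1 had 7.10 CPM per kilobase in Con, above EFNA4 (5.66), and EPHA7 had 1.28, above EFNB2 (1.21). Both lengths include bases shared with EFNA4-EFNA3. The levels of EFNA3 and EFNA4 per kilobase are too low if reads on those bases were not assigned to them, which was not tested.

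**Figure D1:**
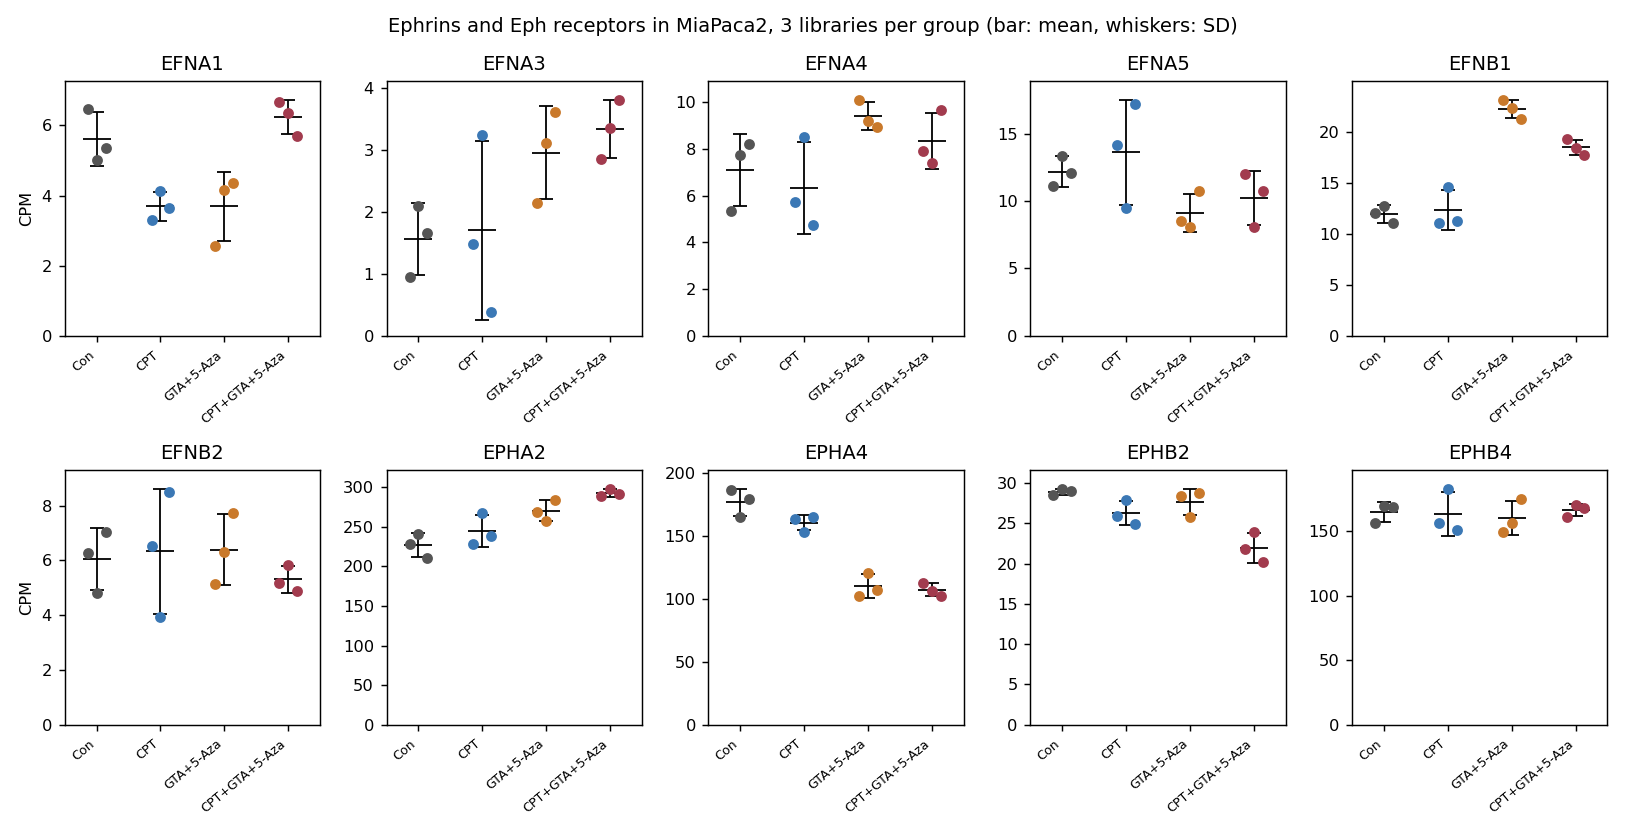
CPM of each of the 10 genes in the 4 groups, with 1 point per library, a bar at the mean and whiskers of 1 SD; each panel has its own axis from 0. EFNB1 is higher and EPHA4 lower in all 6 primed libraries than in any of the 6 unprimed ones, while EFNA1 is lowest in the CPT and GTA+5-Aza groups.

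Priming without CPT, GTA+5-Aza against Con, was compared first. EFNB1 and EPHA2 rose, EPHA4 fell, and 6 other listed genes did not pass the adjusted threshold. These 3 of 9 genes, EFNA1 being left out, stand beside 17.5% of all genes tested that edgeR called after Benjamini-Hochberg correction (an adjusted p under 0.05), the 2 higher ones beside 9.95% and the 1 lower one beside 7.53%, and nothing is read from the count because the list was made with these groups in view. The median log2 fold change was 0.02 over the 10 genes and 0.01 over all genes tested.

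EFNB1, a membrane-spanning ligand that binds mainly EphB receptors, had 12.1, 12.8 and 11.0 CPM in the Con libraries and 23.1, 22.3 and 21.3 CPM in the GTA+5-Aza libraries. Every primed library was above every control. The log2 fold change was 0.89 ± 0.129 (SE, n = 3 per group; edgeR, Benjamini-Hochberg adjusted p = 1.94e-05).

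EPHA4, a receptor that binds ephrins of both classes, went the other way. It had 186, 165 and 179 CPM in Con and 102, 120 and 107 CPM in GTA+5-Aza, with no overlap. Its log2 fold change of -0.69 ± 0.0702 (SE) had the smallest p of the 10 genes (edgeR, Benjamini-Hochberg adjusted p = 1.54e-07).

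EPHA2, a receptor for A-class ephrins, was the most abundant of the 10 and had a smaller difference. Its level was 228, 242 and 211 CPM in Con and 269, 258 and 284 CPM in GTA+5-Aza, a log2 fold change of 0.25 ± 0.0638 (SE; edgeR, Benjamini-Hochberg adjusted p = 0.00644). When Con replicate 3 was left out it was 0.20 with an adjusted p of 0.0702 in edgeR, so this call rests on that library.

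The count ratio of EPHA2 to EPHA4 within a library needs no scaling between libraries. It was 1.18 to 1.47 in Con, 1.39 to 1.74 in CPT, 2.14 to 2.65 in GTA+5-Aza and 2.57 to 2.85 in CPT+GTA+5-Aza. All 6 primed libraries were above all 6 unprimed ones. The pair was taken from receptors called in opposite directions, so this separation follows from the choice and adds no support. The ratio does not show how much each receptor moved.

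**Figure D2:**
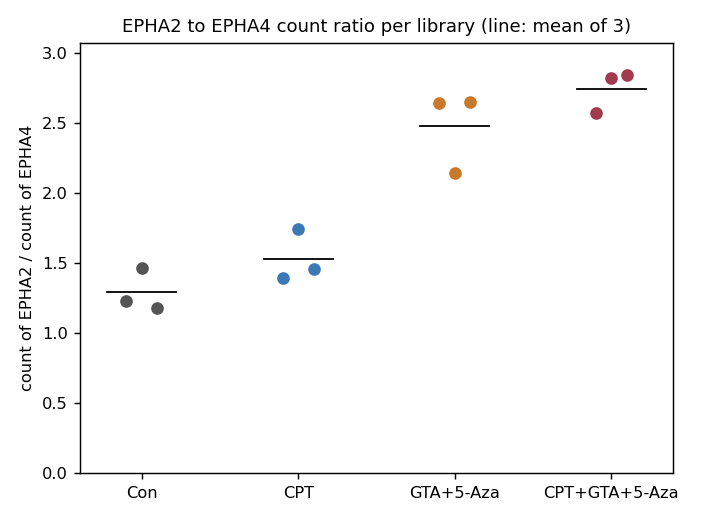
Ratio of the EPHA2 count to the EPHA4 count in each of the 12 libraries, with a line at the mean of 3 libraries per group and an axis from 0. The unprimed libraries lie between 1.18 and 1.74 and the primed ones between 2.14 and 2.85.

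EFNA1, a lipid-anchored ligand of EPHA2, had 6.47, 5.00 and 5.35 CPM in Con and 2.56, 4.16 and 4.35 CPM in GTA+5-Aza. The groups did not overlap, at 48 to 123 counts per library. The log2 fold change was -0.60. No test is given because EFNA1 had been named for this difference.

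The remaining A-class ligands were not called. The level of EFNA3 was 0.947 to 2.10 CPM in Con and 2.14 to 3.61 CPM in GTA+5-Aza, and its log2 fold change was 0.90 at a 95% confidence interval of 0.01 to 1.80. That of EFNA4 was 5.36 to 8.22 CPM in Con and 8.92 to 10.1 CPM in GTA+5-Aza. EFNA5 had 11.1 to 13.3 CPM in Con and 8.11 to 10.7 CPM in GTA+5-Aza, and its log2 fold change was -0.42. The libraries of these 3 genes did not overlap between the groups, which was also so for EFNB1, EPHA2 and EPHA4, that is 6 of the 9 genes beside 34.1% of all genes tested. The 95% intervals of the log2 fold change were narrow around 0 for EPHB4, a receptor for EFNB2 (-0.19 to 0.10), and for EPHB2, a receptor for B-class ephrins (-0.28 to 0.15). For EFNB2, a ligand known from arterial vessels, the interval was wider, from -0.40 to 0.56.

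By the study's rule for differentially expressed genes (DEGs), a fold change above 1.5 with an unadjusted P under 0.05, EFNA3 and EFNB1 were higher and EPHA4 was lower after priming without CPT, 3 of 9 genes beside 8.44% of all genes. EPHA2 is absent from this count because its fold change was below 1.5.

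Priming in the presence of CPT, CPT+GTA+5-Aza against CPT, uses 6 other libraries. EFNA1, EFNB1 and EPHA2 rose and EPHA4 fell, 4 of 10 genes beside 17.0% of all genes that edgeR called, with 3 higher beside 9.57% and 1 lower beside 7.39%. Together with EPHB2 these were the 5 listed genes whose libraries did not overlap between the groups, beside 30.8% of all genes. Directions of EFNB1, EPHA2 and EPHA4 were those seen without CPT, in libraries that share no control with that comparison. These 3 genes stand beside 11.7% of all genes called the same way in both comparisons. The list was made with earlier results of these libraries known, so the shared direction is a description.

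EFNB1 had 11.1, 14.6 and 11.3 CPM in CPT and 19.3, 18.4 and 17.8 CPM in CPT+GTA+5-Aza, without overlap. Its log2 fold change was 0.58 ± 0.131 (SE, n = 3 per group; edgeR, Benjamini-Hochberg adjusted p = 0.00256). EPHA4 had 164, 153 and 165 CPM in CPT and 113, 106 and 103 CPM in CPT+GTA+5-Aza, again with every primed library lower. The log2 fold change of EPHA4 was -0.58 ± 0.0705 (SE; edgeR, Benjamini-Hochberg adjusted p = 1.60e-06).

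EPHA2 had 228, 267 and 239 CPM in CPT and 289, 298 and 292 CPM in CPT+GTA+5-Aza, so the groups did not overlap. The log2 fold change was 0.26 ± 0.0638 (SE; edgeR, Benjamini-Hochberg adjusted p = 0.00514). Without CPT replicate 1 it was 0.21, with an adjusted p of 0.0566 in edgeR.

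EFNA1 was higher in this comparison, in libraries other than those it had been named on, and opposite in sign to the difference without CPT. Its level was 3.30, 4.13 and 3.66 CPM in CPT and 6.66, 6.36 and 5.69 CPM in CPT+GTA+5-Aza, a log2 fold change of 0.75 ± 0.225 (SE; edgeR, Benjamini-Hochberg adjusted p = 0.0203). The adjusted p in edgeR was 0.0862 without CPT replicate 1, 0.0750 without CPT+GTA+5-Aza replicate 1 and 0.0628 without CPT+GTA+5-Aza replicate 2, so the call depends on these libraries. Leaving out CPT replicate 2 or CPT replicate 3 ended none of the 4 calls. The log2 fold changes were then 0.72 and 0.52 for EFNB1, -0.62 and -0.57 for EPHA4, 0.32 and 0.24 for EPHA2 and 0.84 and 0.74 for EFNA1.

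EPHB2 had 24.9 to 27.9 CPM in CPT and 20.2 to 23.9 CPM in CPT+GTA+5-Aza, and was not called (edgeR, Benjamini-Hochberg adjusted p = 0.0971). EFNA3 spread widely among the CPT libraries, at 1.48, 3.25 and 0.382 CPM, against 2.85 to 3.80 CPM in CPT+GTA+5-Aza. EFNA5 likewise had 14.2, 9.49 and 17.2 CPM in CPT. CPT replicate 2 was thus the high library for EFNA3 and the low one for EFNA5, and it was also high for EFNA4 (8.51 CPM against 5.72 and 4.75 CPM). Without it, edgeR also called EFNA3, EFNA4 and EFNA5, with log2 fold changes of 1.82, 0.66 and -0.62. The share of all genes called without that library is not given here, so nothing is read from these added calls. By the study's DEG rule 2 genes passed with all libraries, EFNA1 and EFNA3, beside 8.67% of all genes. EFNB1 and EPHA4, at log2 fold changes of 0.58 and -0.58, lay just under the fold threshold.

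**Figure D3:**
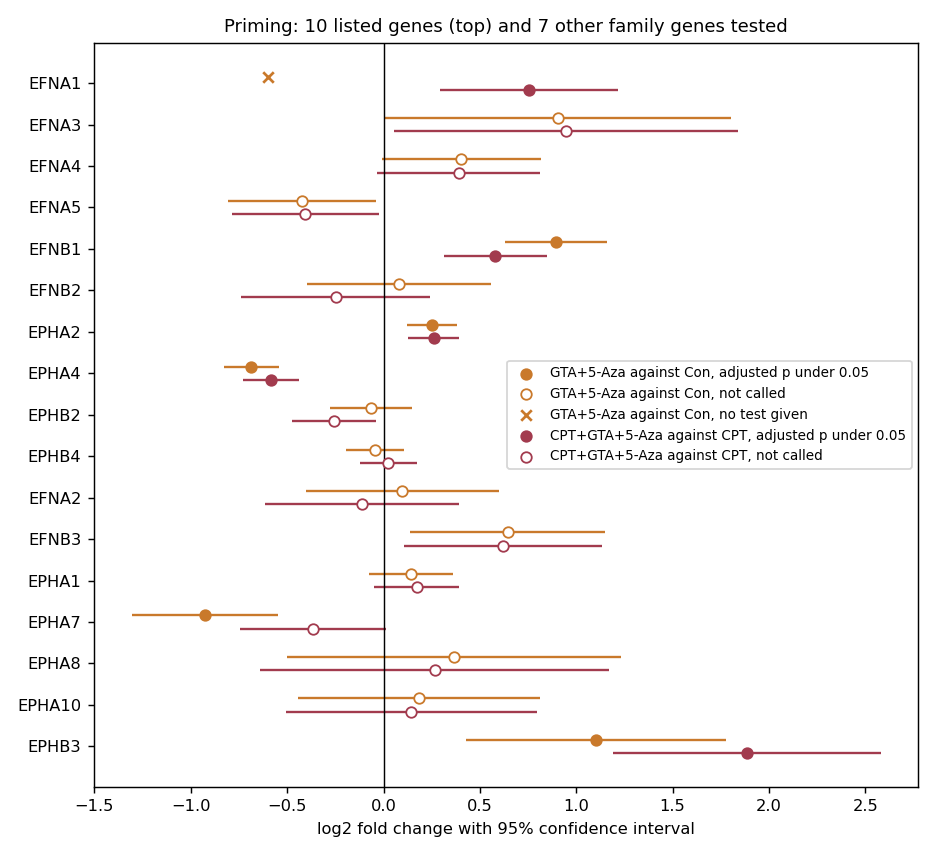
Log2 fold change after priming with its 95% confidence interval for the 10 listed genes and the 7 other ephrins and Eph receptors that passed the filter, without CPT (orange) and with CPT (red); filled points had an adjusted p under 0.05, and the cross is EFNA1 without CPT, drawn with no interval because no test is given. EFNB1 lies at 0.89 without and 0.58 with CPT, and EPHA4 at -0.69 and -0.58.

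The summed level of the 6 listed ephrins was 42.2 to 45.7 CPM in Con, 42.3 to 45.8 CPM in CPT, 51.5 to 56.6 CPM in GTA+5-Aza and 49.4 to 53.9 CPM in CPT+GTA+5-Aza. Primed and unprimed libraries did not overlap in this sum. EFNB1, the only listed ephrin called higher in both priming comparisons, was then left out, a choice made with its values known. The sum of the other 5 ligands lay between 28.4 and 35.3 CPM in all 12 libraries. The groups overlapped, which that choice favours. The summed level of the 4 receptors, from 549 to 631 CPM, overlapped between the groups as well.

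CPT alone was compared in unprimed cells, CPT against Con. EdgeR called none of the 10 genes and 0 of the 17123 tested (0%) after Benjamini-Hochberg correction. DESeq2 called 4 genes, none of them listed here. Of the 9 genes other than EFNA1, 0 had an unadjusted P under 0.05 in edgeR, beside 4.28% of all genes, and 0 met the study's DEG rule, beside 1.83%. The CPT libraries of EFNA1, at 3.30 to 4.13 CPM, were all below the Con libraries, at 5.00 to 6.47 CPM. The log2 fold change of EFNA1 was -0.60, given without a test because the Con libraries are those it had been named on, and it ran from -0.69 without CPT replicate 2 to -0.48 without Con replicate 1. Libraries did not overlap for EPHA4 and EPHB2, 2 of 9 genes beside 8.02% of all genes. EPHA4 had a log2 fold change of -0.14 and an interval of -0.28 to 0.004 that just included 0. Without CPT replicate 2 its value was -0.11, and without CPT replicate 3 it was -0.16. The intervals of EPHA2 (-0.02 to 0.24) and EPHB4 (-0.16 to 0.13) allow at most small differences, whereas that of EFNA3 (-0.80 to 1.06) allows large ones.

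CPT in primed cells, CPT+GTA+5-Aza against GTA+5-Aza, also gave 0 listed genes and 0% of all genes called by edgeR after correction. DESeq2 called 1 gene in all, which is not one of the 10. An unadjusted P under 0.05 was reached by EFNB1 and EPHB2, 2 of the 9 genes other than EFNA1, beside 2.71% of all genes. EFNA1 had 5.69 to 6.66 CPM with CPT against 2.56 to 4.35 CPM, a log2 fold change of 0.76, again without a test because the GTA+5-Aza libraries are among those it had been named on. EPHB2 had 21.8, 23.9 and 20.2 CPM with CPT and 28.4, 25.8 and 28.8 CPM without it, a log2 fold change of -0.33 (edgeR, unadjusted P = 0.00427). The difference of EFNB1 was -0.27 on the log2 scale (edgeR, unadjusted P = 0.0451), so that its level in CPT+GTA+5-Aza lay between those of GTA+5-Aza and Con. By the DEG rule 0 of the 9 genes passed, beside 1.00% of all genes. Libraries of EFNB1, EPHA2 and EPHB2 did not overlap, 3 of 9 genes beside 9.15% of all genes.

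**Figure D4:**
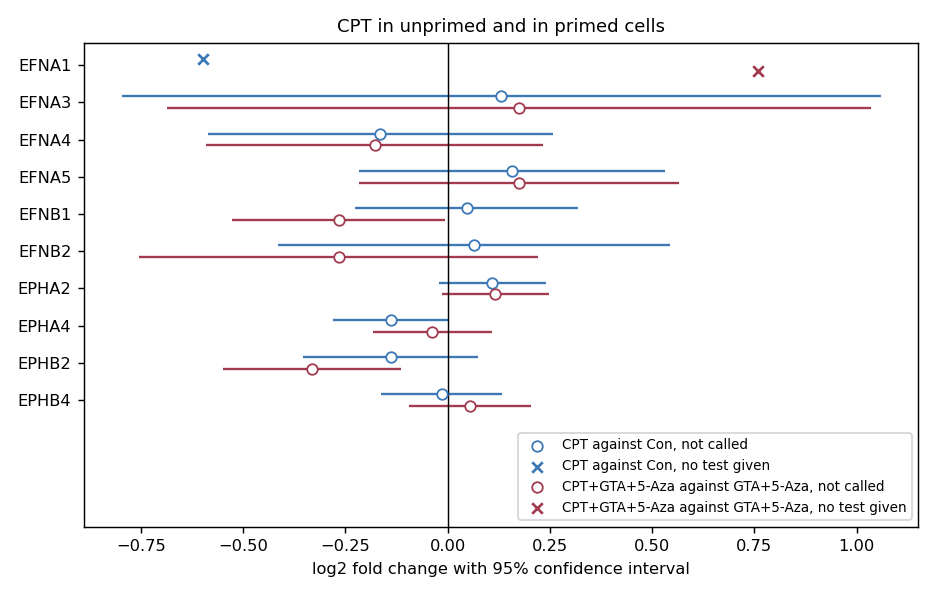
Log2 fold change with CPT and its 95% confidence interval for the 10 listed genes, in unprimed cells (CPT against Con, blue) and in primed cells (CPT+GTA+5-Aza against GTA+5-Aza, red); the circles are open because no gene had an adjusted p under 0.05, and the crosses are EFNA1, drawn with no interval because no test is given. EPHB2 lies at -0.14 in unprimed and -0.33 in primed cells, and EFNA1 at -0.60 and 0.76.

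A term for the interaction of CPT and priming, fitted over all 12 libraries, asked whether the CPT response depended on priming. No listed gene and 0% of all genes were called by edgeR, and DESeq2 called 0 as well. Of the 9 genes other than EFNA1, 0 had an unadjusted P under 0.05, beside 2.63% of all genes, and 0 met the thresholds of the DEG rule, beside 1.78%. EFNA1 had a log2 difference between the CPT responses of 1.35, which ran from 1.15 to 1.49 with each library left out in turn. The interaction uses the Con and GTA+5-Aza libraries in which EFNA1 had been named as lower after priming, and that choice favours a positive difference, so the value is a description and no test is given. EPHA2 had the narrowest interval around 0, from -0.18 to 0.19. For EFNB1 the interval was -0.69 to 0.06.

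The full combination was compared with the control, CPT+GTA+5-Aza against Con. EFNB1 and EPHA2 rose and EPHA4 and EPHB2 fell, 4 of 9 genes with EFNA1 left out, beside 16.8% of all genes that edgeR called, with 2 higher beside 9.62% and 2 lower beside 7.16%. Libraries of these 4 genes and of EFNA3 did not overlap, 5 of 9 genes beside 35.8% of all genes. By the DEG rule EFNA3, EFNB1 and EPHA4 passed, 3 of 9 genes beside 8.32%. This comparison shares its libraries with the preceding ones and is not separate evidence. The log2 fold change was 0.63 for EFNB1 (edgeR, Benjamini-Hochberg adjusted p = 0.00121), 0.37 for EPHA2 (0.000172), -0.72 for EPHA4 (4.83e-08) and -0.40 for EPHB2 (0.00916). The EPHB2 libraries had 28.6, 29.3 and 29.0 CPM in Con and 21.8, 23.9 and 20.2 CPM in the combination, and without CPT+GTA+5-Aza replicate 3 the adjusted p in edgeR was 0.0583. The libraries of EFNA1 overlapped, at 5.00 to 6.47 CPM in Con and 5.69 to 6.66 CPM in the combination.

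Of the other 12 members of the family, 7 passed the filter. EPHB3, a receptor for B-class ephrins, had 1.10 to 1.72 CPM in Con, 0.655 to 1.54 CPM in CPT, 2.45 to 4.23 CPM in GTA+5-Aza and 4.09 to 4.33 CPM in CPT+GTA+5-Aza. It rose with priming by a log2 fold change of 1.10 without CPT and 1.89 with CPT, with Benjamini-Hochberg adjusted p of 0.0200 and 0.000275 in edgeR. The first of these calls was lost without Con replicate 1 (adjusted p = 0.1000 in edgeR) and without GTA+5-Aza replicate 3 (0.139). EPHA7, a receptor for A-class ephrins, fell from 9.19 to 10.8 CPM in Con to 4.22 to 6.44 CPM in GTA+5-Aza, a log2 fold change of -0.93 (edgeR, Benjamini-Hochberg adjusted p = 0.000798). With CPT its log2 fold change was -0.37 (adjusted p = 0.187 in edgeR), and the difference between these responses, 0.56 on the log2 scale, had an unadjusted P of 0.0411 in edgeR and was not called. EFNB3, EFNA2, EPHA1, EPHA8 and EPHA10 were not called in either priming comparison. In the full combination against Con, EPHB3 rose by a log2 fold change of 1.48 (edgeR, Benjamini-Hochberg adjusted p = 0.00212) and EPHA1, an A-class receptor, by 0.31 (0.0475), while EPHA7 had -0.64 (0.0149). The call of EPHA1 held in 7 of 13 alternatives, and that of EPHA7 was lost without Con replicate 1 (adjusted p = 0.0557 in edgeR) and without CPT+GTA+5-Aza replicate 3 (0.0768). EPHA3 had 2 to 20 counts, EPHB1 0 to 9, EPHB6 0 to 4 and EPHA5 0 to 1, and EPHA6 had 0 in every library; a count of 0 allows up to 3 counts, that is 0.143 to 0.184 CPM by library, for counting error only.

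Genes known to act beside or below the receptors were followed as lists. Among adaptors and non-receptor kinases, 5 of 19 tested genes rose and 1 fell after priming without CPT, beside 9.95% and 7.53% of all genes, and 4 rose and 1 fell with CPT, beside 9.57% and 7.39%. SRC and PXN, encoding a kinase and a focal adhesion adaptor, were higher by 0.39 and 0.37 on the log2 scale without CPT and by 0.38 and 0.41 with CPT. YES1, a kinase related to SRC, was the gene that fell, by 0.19 and 0.27 on the log2 scale.

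Of 11 genes of shedding, endocytosis and degradation, 1 rose and 1 fell without CPT, 2 called genes beside 17.5% of all genes, while 2 rose and 1 fell with CPT, 3 called genes beside 17.0%. ADAM10, a protease that cleaves ephrins, was lower by 0.24 and 0.26 on the log2 scale. INPPL1, a phosphatase that binds EPHA2, was higher by 0.31 and 0.38. ANKS1B, an adaptor protein with ankyrin repeats, had log2 fold changes of 0.48 without CPT and 0.94 with CPT (edgeR, Benjamini-Hochberg adjusted p = 0.191 and 0.0102). Its mean level was 4.11 CPM in Con, 2.89 CPM in CPT, 5.71 CPM in GTA+5-Aza and 5.56 CPM in CPT+GTA+5-Aza. Among 5 phosphatases, PTPN11 alone was called and fell in both comparisons, 1 of 5 beside the same shares. Among 9 partners of reverse signalling, 2 rose and 1 fell without CPT, 3 of 9 beside 17.5% of all genes, and 1 rose and 1 fell with CPT, 2 of 9 beside 17.0%. STAT3 was the one that fell in both, by 0.52 and 0.42 on the log2 scale. The medians of these 4 lists lay between -0.18 and 0.19 without CPT and between -0.10 and 0.08 with CPT, beside 0.01 over all genes in each. With CPT alone, in unprimed or in primed cells, edgeR called none of these genes.

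Genes with the most similar pattern over the 12 libraries were looked up for 3 members chosen after their values were seen, among 13196 genes expressed above a mean log2 CPM of 1. The libraries fall into primed and unprimed ones, so a shared shift with priming raises such a correlation, and it is given without a p. For EPHA4 the closest were SEMA3A (Pearson's r = 0.990), RAB2A (0.987) and NUCKS1 (0.983). For EFNB1 they were MYRF (0.983), ZCCHC24 (0.977) and ABCG4 (0.974). For EFNA1, whose pattern does not follow priming alone, the correlations were lower, at 0.866 for ENSG00000260274, 0.798 for TBC1D20 and 0.787 for FNTB.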

How the data were processed

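RNA-seq libraries of MiaPaca2 cells were analysed, with 3 per group and 12 in all. Paired-end reads of 150 bp were trimmed (Trim Galore), aligned to GRCh38 (HISAT2 2.2.1) and assigned to genes (HTSeq) by the authors. The deposited files hold whole-number read counts that were not normalized. The annotation release and strand setting are not given in the sources used here. Symbols and coordinates came from GENCODE 44, where 52181 of 63677 identifiers, with 99.0% of the counts, were found. No other columns of per-sample values were in the files.

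Counts were tested in R 4.3.3 with edgeR 4.0.16 (filterByExpr, TMM, glmQLFit and glmQLFTest, 1 fit of 12 libraries, Benjamini-Hochberg adjustment over 17123 genes), with limma 3.58.1 loaded. CPM used TMM-scaled library sizes. SEs were derived from the F statistic, and levels per kilobase used the union of exons. The total count behind each library (16162490 to 21224665) makes 1 read worth 0.0477 to 0.0612 CPM. A gene was called at an adjusted p under 0.05. Calls were also made by the study's rule, a fold change above 1.5 with an unadjusted P under 0.05.

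Members, gene lists, tests, the EPHA2 to EPHA4 ratio and the ephrin sum without EFNB1 were chosen with earlier results of these data known. The text names the 10 members, all other family genes, and pathway genes with an adjusted p under 0.05 and a fold change above 1.5 in a priming comparison (ANKS1B; 1 further list of pathway genes is not reported here). The rule for similar genes asked for a member with an adjusted p under 0.05 and a fold change above 1.5 in both priming comparisons, which none met, so the 3 members shown, like SRC, PXN, YES1, ADAM10, INPPL1, PTPN11 and STAT3, were chosen after their values were seen. Alternatives were RLE scaling, library size alone, no filter, the likelihood ratio test, DESeq2 1.42.0, only the groups compared in the fit, a replicate block, each library left out, and the study's DEG rule. Replicates within a group differed by more than sampling noise (chi-square per degree of freedom of 3.88 to 16.6).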

Additional observations from a re-analysis of the deposited data

Results flagged for a closer look

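The log2 difference of EFNA1 between its CPT response in primed and in unprimed cells was 1.35, with CPT responses of opposite sign. EFNA1 had been named for a low level in the GTA+5-Aza libraries against the Con libraries, a choice that favours both signs, so the difference is a description and no test of it is given. No gene of the 17123 tested had an adjusted p under 0.05 for CPT in unprimed cells, for CPT in primed cells or for their difference in edgeR, and EFNA1 had 48 to 126 counts per library.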

How the results depend on the processing

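EFNB1 and EPHA4 kept their direction and an adjusted p under 0.05 in all 13 alternatives of each priming comparison and of the full combination. With a library left out, the number of listed genes called after priming with CPT ran from 2 without CPT replicate 1 to 7 without CPT replicate 2. Shares of all genes called in these fits are not given here, so nothing is read from this range. By the study's DEG rule the number was 2. By that rule, which does not adjust p, 1 listed gene (EFNA1) was called for CPT in unprimed cells, for CPT in primed cells and for the interaction, instead of 0, and nothing is read from this because the gene had been named on libraries of these comparisons. With single libraries left out, the log2 fold change of EFNB2 ran from -0.077 to 0.22 without CPT and from -0.51 to 0.021 with CPT, and that of EPHB4 from -0.11 to 0.0028 and from -0.032 to 0.11, so both changed sign. Neither gene was called in any of these. Replicate numbers did not pair the libraries, since the correlations between libraries of the same number ran from -0.52 to 0.56 (median 0.02) and 2 of 12 libraries matched best with their own number. Between libraries of other numbers the correlation reached 0.49 (median -0.008). Variation shared across groups under other numbers was not modelled. With the replicate number as a block, 3 and 4 listed genes were called after priming without and with CPT, 4 for the full combination and 0 in the other comparisons, the same numbers as without it. The 3 libraries per group and the low counts of EFNA3 (7 to 66 per library) limit the precision of the smaller differences.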
